A study of Macaca fascicularis with 2 samples.

Results

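Genes of the hypoxia response, 10 in all and chosen by name, were followed through single cells of cartilage and intervertebral disc. They comprised the hypoxia-inducible factor (HIF) alpha subunits *HIF1A*, *EPAS1* and *HIF3A*, the HIF prolyl hydroxylases *EGLN1* and *EGLN3*, and the hypoxia response genes *NDRG1*, *BNIP3*, *ADM*, *ANKRD37* and *MRAS*. Of these 10 genes, 9 were analysed among the 21371 genes listed in the count matrix, and *EGLN1* was not analysed here. The cells came from wild-type male *Macaca fascicularis* (cynomolgus monkey), 3 years old. The labels list 3 tissue samples, and the study describes them as taken from 2 monkeys. They were articular cartilage (AC) and nucleus pulposus (NP, the gel-like core of the intervertebral disc) of 1 animal and AC of the other. All were pooled into 1 library sequenced by TAS-seq, a method that amplifies the cDNA of single cells captured on barcoded beads. Each cell carried 1 of 4 sample tags, A951 to A954, and the labels do not say which tissue each tag marks, so AC and NP are not separated.

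In cells with enough oxygen, prolyl hydroxylases of the EGLN family mark HIF alpha subunits for destruction by the VHL ubiquitin ligase. When oxygen is low the alpha subunits persist, pair with ARNT and turn on genes for glycolysis, mitochondrial turnover, vessel growth and pH control. *EGLN3* is itself such a target. Cartilage and the NP have no vessels of their own, and HIF-1α is known as a survival factor in both. Because the alpha subunits are controlled mainly through protein stability, their RNA is no measure of their activity.

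The matrix held 1354369622 reads over 5723 cell columns. Of these, 5674 cells had 1 tag, 42 were doublets by their tags and 7 had none. After limits on genes detected and on mitochondrial reads, 5653 cells were kept, with a median of 198432 reads and 3827 genes. The tags held 995, 1125, 1377 and 2156 cells. Doublets of 2 cells with the same tag cannot be seen by this method. Levels are the pooled reads of a gene in a cell group, scaled to reads per 1000000 reads (rpm), with exact 95% Poisson intervals, and shares are of cells with 5 or more reads of a gene, with exact 95% Clopper-Pearson intervals. Reads are not molecules, so all intervals cover counting error only. There was 1 library and no replicate, so no test was made and no p-value is given.

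Cells were divided by marker reads into 3 groups. Notochordal cells, the large vacuolated cells of the young NP, were defined by 5 or more reads of both *KRT19* (a keratin) and *TBXT* (the notochord transcription factor brachyury), and 310 cells met this rule. Cells with *IL17B* (a cytokine of the IL-17 family) at 100 rpm or more numbered 151 and are called IL17B-high. The remaining 5192 cells are called other cells, and no cell met both rules. Near the limits lay 85 cells with 5 or more reads of only 1 of *KRT19* and *TBXT*, 4 cells with *IL17B* between 50 and 100 rpm and 10 between 100 and 200 rpm. The median *IL17B* level of IL17B-high cells was 1829 rpm.

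Notochordal cells were unevenly spread over the tags. They made up 21.0% of the cells of A952, 6.73% of A951, 0.363% of A953 and 0.0928% of A954, or 236, 67, 5 and 2 cells. Values by tag are given for tags with at least 10 cells of a group, which for notochordal cells are A951 and A952. IL17B-high cells were found under every tag, with 37, 42, 51 and 21 cells. Of 12 notochordal markers, 9 were counted, and all 9 were at least 2-fold higher in notochordal than in matched other cells. The 2 used by the rule are among them. For 6 of the 9, 5 or more reads were found in at least 5% of notochordal cells but not of paired other cells. Over all genes tested 23.5% were at least 2-fold higher, and nothing about the group is read from the count. *CDH2* (N-cadherin) was at 120 rpm in notochordal and 1.18 rpm in other cells. IL17B-high and other cells both carried chondrocyte collagens, with *COL2A1* (type II collagen) at 30361 and 19526 rpm, against 1269 rpm in notochordal cells. *ACAN* (aggrecan) went the other way, at 14440 rpm in notochordal, 4648 rpm in IL17B-high and 3932 rpm in other cells. Of 8 chondrocyte markers, 6 were at least 2-fold lower in notochordal than in paired other cells and 2 at least 2-fold higher. Of all genes tested 11.1% were lower and 23.5% higher. For 1 of the 6, only other cells had 5 or more reads in at least 5% of cells. The groups differed in depth, with a median of 4061 genes detected in notochordal, 5316 in IL17B-high and 3791 in other cells. All ratios between groups are therefore between cells paired 1 to 1 on genes detected within a tag.

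*HIF1A*, the main oxygen-regulated subunit, had reads in nearly every cell of each group, and its level was lowest in notochordal and highest in IL17B-high cells. Pooled, it was 483 rpm in notochordal cells (478 to 488), 731 rpm in other cells (729 to 732) and 1016 rpm in IL17B-high cells (1008 to 1024). By tag it was 388 rpm under A951 and 500 rpm under A952 in notochordal cells, and 1043, 949, 1106 and 878 rpm under A951 to A954 in IL17B-high cells. The other cells had 651, 721, 894 and 670 rpm. The notochordal values lay below all others. IL17B-high and other cells overlapped only between the 878 rpm of A954 and the 894 rpm of A953. The share of cells with 5 or more *HIF1A* reads was 85.5% (81.1 to 89.2) in notochordal, 97.4% (93.4 to 99.3) in IL17B-high and 92.3% (91.6 to 93.0) in other cells.

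*EPAS1*, which encodes HIF-2α, was highest in other and lowest in IL17B-high cells. It was 86.5 rpm in other cells, 56.6 rpm in notochordal cells and 23.3 rpm in IL17B-high cells. In other cells it was 100.3, 96.9, 88.4 and 77.8 rpm under A951 to A954, and in IL17B-high cells 18.3, 46.8, 17.9 and 10.7 rpm. Those groups did not overlap. The notochordal values of 47.0 rpm under A951 and 60.2 rpm under A952 lay between them, the lower only just above 46.8 rpm. Few cells carried some of these values. The 5 cells with the most reads held 81.2% of *EPAS1* reads in notochordal cells of A951 and 25.4% in those of A952. In IL17B-high cells of A952 they held 66.4%. *HIF3A*, the remaining alpha subunit, was close to the floor everywhere, with 50 reads in all notochordal cells, 12 in IL17B-high and 301 in other cells. Of the 50 notochordal reads, 29 came from 1 cell.

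*EGLN3*, the hydroxylase, was at 58.2 rpm in notochordal, 38.0 rpm in other and 7.08 rpm in IL17B-high cells. The IL17B-high values of 11.6, 5.68, 7.11 and 2.37 rpm lay below every other value. They rested on 455 reads, 67.3% of them in 5 cells. Any *EGLN3* read was found in 33.8% of IL17B-high and 31.4% of other cells, at unequal depths. The shares with 5 or more reads were 7.28% and 17.2%. Among notochordal cells A951 had 98.2 rpm and A952 had 49.3 rpm, with 67.5% and 33.0% of the reads in 5 cells. In other cells it was 34.8, 37.2, 21.9 and 48.2 rpm, so A954 was 2.197 times A953.

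**Figure D1:**
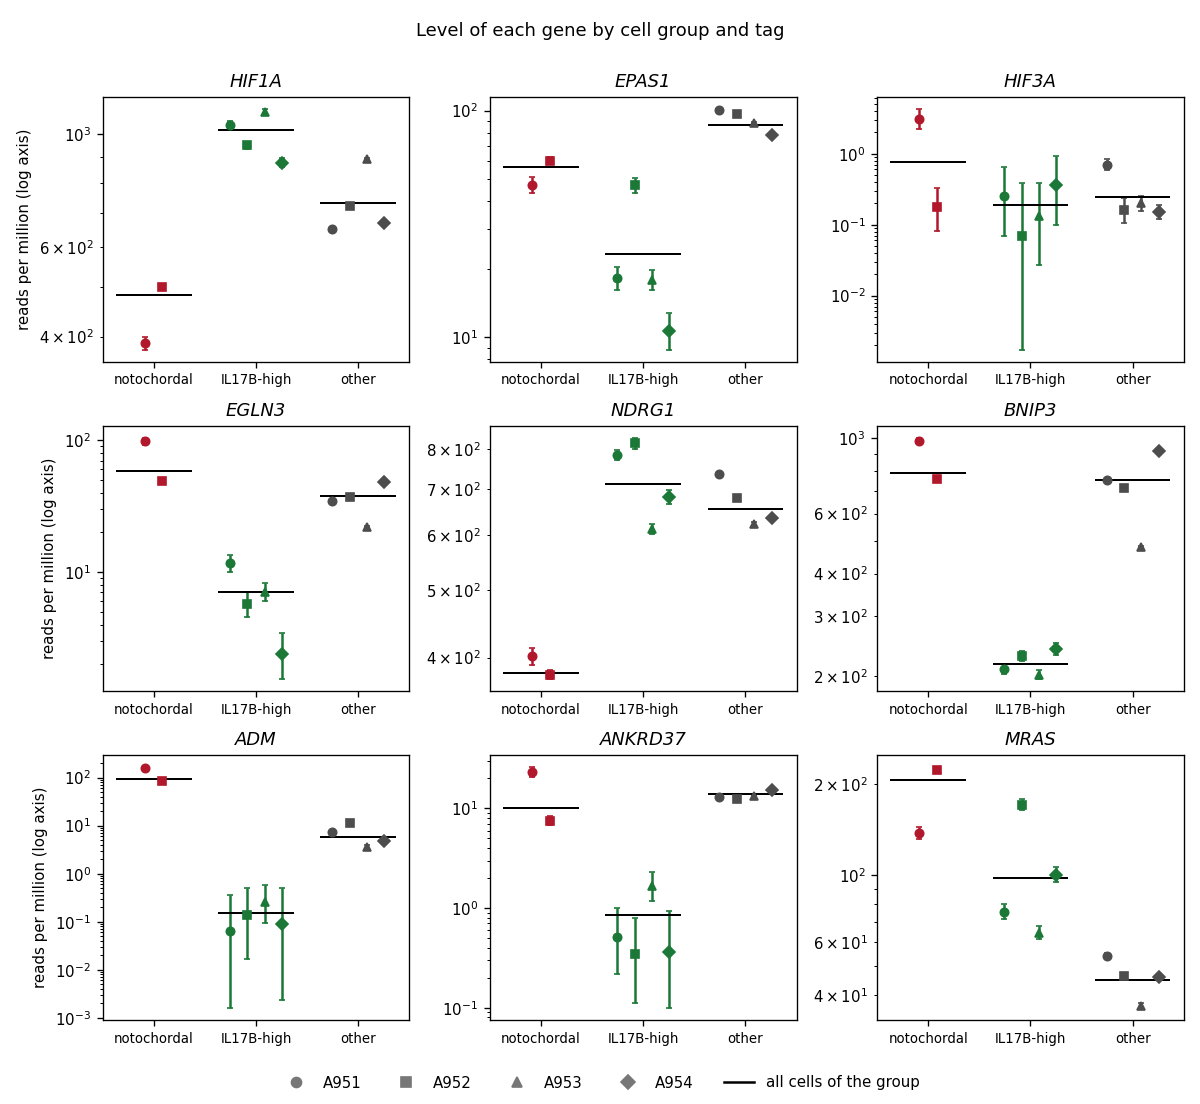
Level of each of the 9 genes in rpm on a log axis whose range differs between panels, by cell group, with 1 marker for each tag with at least 10 cells, exact 95% Poisson intervals as bars and the pooled level as a black line. *BNIP3*, *EGLN3*, *ADM* and *ANKRD37* of IL17B-high cells sit below every value of the other groups, and *ADM* and *MRAS* of notochordal cells sit above those of other cells.

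Among the response genes, *NDRG1* (a hypoxia and stress gene of the NDRG family) followed the order of *HIF1A*. It was 380.4 rpm in notochordal, 654 rpm in other and 713 rpm in IL17B-high cells. Under A951 and A952 the notochordal cells had 402 and 378 rpm, and the other cells had 735, 679, 624 and 637 rpm under A951 to A954. The IL17B-high values of 784, 814, 614 and 681 rpm overlapped those of other cells.

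*BNIP3*, a mitochondrial outer membrane protein that drives mitophagy, set IL17B-high cells apart. It was 210.4, 229.8, 202 and 240.4 rpm under A951 to A954 in IL17B-high cells. In other cells it was 752, 714, 478 and 918 rpm, and in notochordal cells 981 rpm under A951 and 755 rpm under A952. No IL17B-high value reached any value of the other groups. The share of cells with 5 or more reads was 78.1% in IL17B-high (70.7 to 84.5), 82.7% in other and 89.7% in notochordal cells, at unequal depths. The median cell had 135 rpm in IL17B-high, 513 rpm in other and 592 rpm in notochordal cells.

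*ADM*, which encodes the vasodilator peptide adrenomedullin, had its highest level in notochordal cells. It was at 157 rpm under A951 and 85.01 rpm under A952 in notochordal cells. In other cells it was 7.49, 11.1, 3.64 and 4.89 rpm under A951 to A954. In IL17B-high cells 10 reads were found in all, or 0.156 rpm. *ADM* reached 5 reads in 74 of 310 notochordal cells (23.9%, 19.2 to 29.0) and in 118 of 5192 other cells (2.27%, 1.88 to 2.72). None of 151 IL17B-high cells did, with an exact interval that reaches 2.41%. The simpler limit of 3 counts for a group with none gives 1.99% (3 of 151 cells). The notochordal reads were concentrated, since the 15 cells with the most reads held 50% of them and 27.7% of cells had any read. *KRT19* and *TBXT*, which define notochordal cells and so reached 5 reads in all 310 of them, did so in 1.02% and 0.597% of other cells. *KRT19* was at 1098 rpm in notochordal and 5.32 rpm in other cells, and *ADM* at 95.3 and 5.82 rpm. The rule that divided the cells used both markers, so their shares and levels are no measure against which to read *ADM*.

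*ANKRD37*, an ankyrin repeat protein, was a low gene, at 14.04 rpm in other, 10.2 rpm in notochordal and 0.856 rpm in IL17B-high cells. Its notochordal level rested on few cells, with 65.7% of reads in 5 cells. *MRAS*, a GTPase of the RAS family, had the order notochordal, IL17B-high, other. It was 138 and 223 rpm under A951 and A952 in notochordal cells. In IL17B-high cells it was 75.7, 171, 64.5 and 100.3 rpm under A951 to A954, and in other cells 54.2, 46.5, 37.0 and 45.9 rpm. The other cells lay below both groups under every tag, while A952 of IL17B-high cells exceeded A951 of notochordal cells. Shares were 50.6% (44.9 to 56.3), 32.5% (25.1 to 40.5) and 15.3% (14.3 to 16.3). In IL17B-high cells 45.9% of *MRAS* reads came from 5 cells, and 1 cell had 1160 reads.

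**Figure D2:**
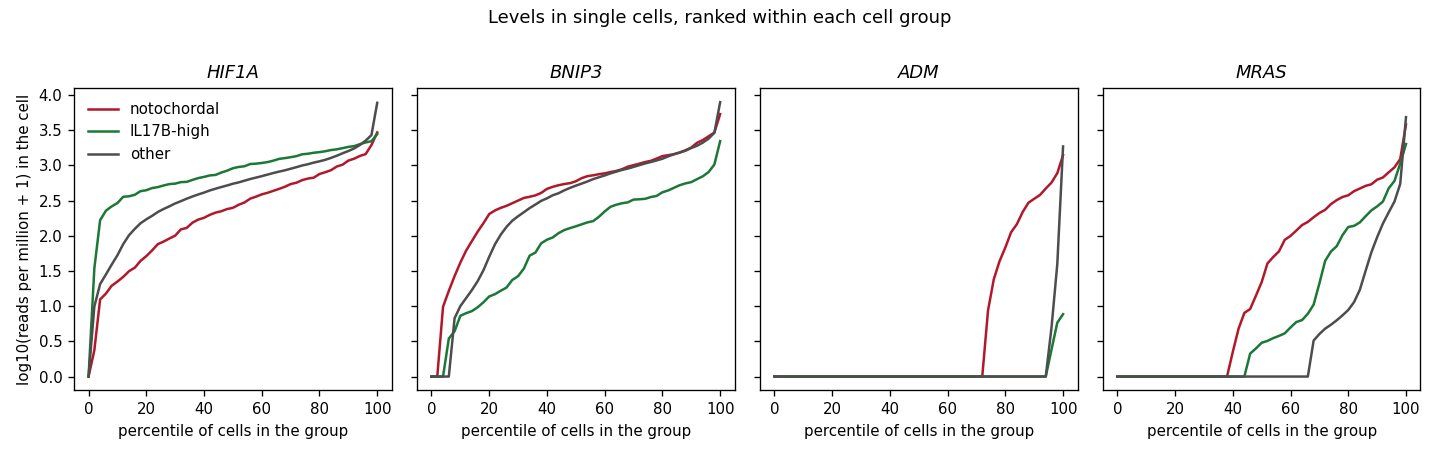
Single cells of each group ranked by the level of 4 genes, as log10(rpm + 1) on the vertical axis against the percentile of cells on the horizontal axis. Over most of its length the curve of IL17B-high cells runs below the others for *BNIP3* and above them for *HIF1A*, while *ADM* leaves 0 at a lower percentile in notochordal cells than in the other groups.

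Shares depend on depth, so each cell was also thinned to 50000 reads, which left out 11 notochordal, 2 IL17B-high and 194 other cells. With thinning, 19.4% of notochordal and 1.501% of other cells had 5 or more *ADM* reads. For *MRAS* the shares were 39.1%, 24.2% and 10.5% in notochordal, IL17B-high and other cells. For *BNIP3* they were 88.3%, 58.4% and 77.9%, so the gap between IL17B-high and other cells was wider after thinning than before.

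The first comparison asked how notochordal cells differ from other cells of like depth. In 310 pairs, *ADM* was 9.43-fold higher in notochordal cells (95.3 against 10.1 rpm), a log2 ratio of 3.24 (3.13 to 3.35). *MRAS* was 4.71-fold higher (206 against 43.8 rpm), a log2 ratio of 2.23 (2.18 to 2.29). Both ratios had the same direction under A951 and A952, the tags with enough cells. *ADM* passed the filter on low values only through notochordal cells, so its values by tag are a description. The log2 ratio of *ADM* was 4.38 under A951 and 2.92 under A952, and that of *MRAS* was 1.88 and 2.28.

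The other 6 members past the filter on low values differed by less than 2-fold. *HIF1A* had a log2 ratio of −0.52 and *NDRG1* of −0.80, with like values under both tags (−0.58 and −0.52 for *HIF1A*, −0.80 and −0.82 for *NDRG1*). *EPAS1* was at −0.67 and *ANKRD37* at −0.66, and these varied more by tag. *EPAS1* was −1.36 under A951 and −0.45 under A952, and *ANKRD37* was 0.05 and −1.02. The direction of *ANKRD37* also turned when cells were paired on reads (0.38). *EGLN3* was at 0.89. *BNIP3* was at 0.17, but all genes had a median log2 ratio of 0.28, and relative to that median *BNIP3* was at −0.11, so its direction depends on the scaling. The direction of no other member changed with this centring.

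Of the 9 genes counted, 8 passed the filter on low values, which asked for 5 or more reads in at least 5% of the paired cells, and *HIF3A* did not. *HIF3A* had 50 against 14 reads, a log2 ratio of 2.07 (1.196 to 3.04), which was 3.93 under A951, −0.19 under A952 and 0.87 without the 5 cells with the most reads of each group. *ADM* passed only through the notochordal cells (23.9% against 2.90%) and *ANKRD37* only through the other cells (4.19% against 6.13%). Of the 8, 2 were at least 2-fold higher and 0 at least 2-fold lower in notochordal cells. Over all 7874 genes tested, 23.5% were 2-fold higher, 11.1% were 2-fold lower and 34.6% either. *ADM* is 1 of the 2, so nothing is read from the count.

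The second comparison set IL17B-high cells against other cells, drawn from the same pool of other cells. In 151 pairs, *BNIP3* was at 217 against 639 rpm (log2 ratio −1.56, −1.59 to −1.53), *EPAS1* at 23.3 against 78.3 rpm (−1.75) and *EGLN3* at 7.08 against 29.9 rpm (−2.08). *BNIP3* and *EPAS1* were at least 2-fold lower under all 4 tags, with *BNIP3* at −1.72, −1.23, −1.21 and −2.15 and *EPAS1* at −2.02, −1.51, −1.35 and −2.87. *EGLN3* was at −0.93, −3.20, −1.59 and −3.57. These are the gene of mitophagy, the second alpha subunit and the hydroxylase. *ANKRD37* was at 0.856 against 16.5 rpm (−4.26, −4.68 to −3.87), from 55 against 1021 reads. *ADM* had 10 against 465 reads, a log2 ratio of −5.59.

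*HIF1A* (0.32) and *NDRG1* (0.37) had small ratios in the other direction. *MRAS* was at 0.80, from 0.07 under A951 to 1.17 under A952. All genes had a median log2 ratio of −0.31 here, and relative to it *MRAS* was at 1.11 and *BNIP3* at −1.25, with no change of direction for any member. Of 7 members past the filter, 0 were at least 2-fold higher and 4 at least 2-fold lower, against 6.58% and 17.2% of the 8014 genes tested (23.8% either way). *ANKRD37* passed through the other cells alone (1.99% against 8.61% of cells), while *HIF3A* and *ADM* did not pass.

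**Figure D3:**
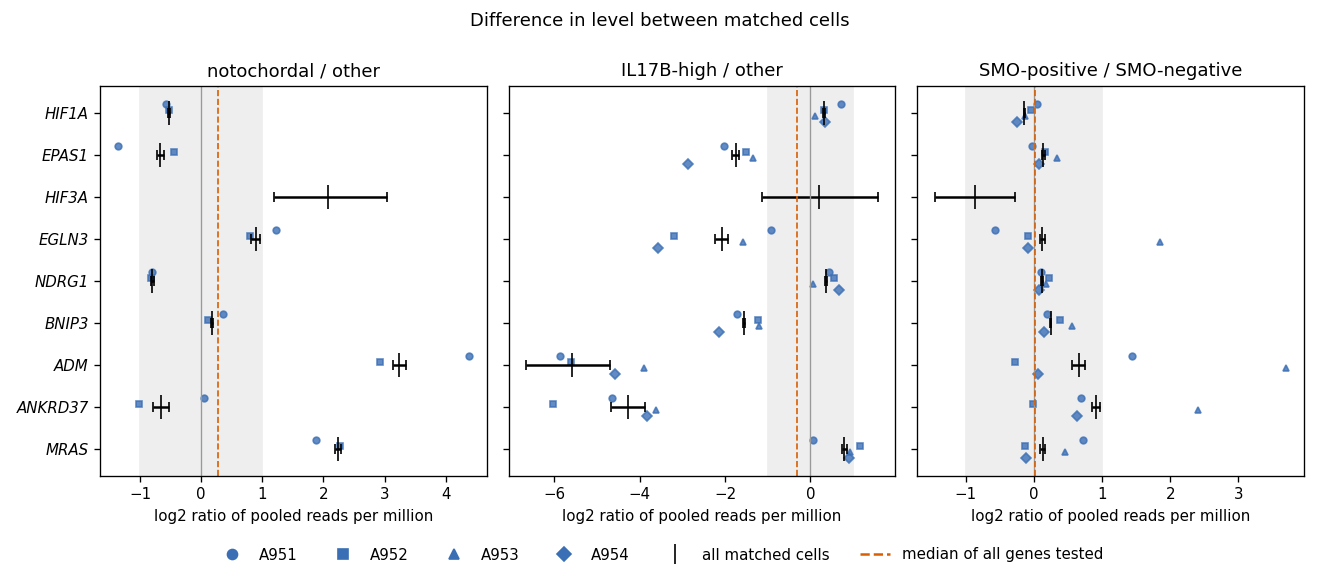
Log2 ratio of pooled rpm between paired cells for the 9 genes in 3 comparisons, with black ticks and bars for all pairs and their exact 95% intervals, blue markers for single tags (none for *HIF3A*, and only A951 and A952 for notochordal cells), grey for less than 2-fold and a dashed line at the median of all genes. *ADM* and *MRAS* lie beyond 2-fold at 3.24 and 2.23 in the first panel, *EPAS1*, *EGLN3*, *BNIP3* and *ANKRD37* lie beyond it on the low side in the second, and in the third no gene reaches 2-fold over all pairs, the ratio farthest from 0 being 0.91 for *ANKRD37*.

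The study asked whether hedgehog signals raise the HIF-1 response. It compared cell clusters within AC and within NP, and measured HIF-1α protein in mouse chondrocytes given sonic hedgehog. The third comparison here is a different one. It divided other cells, with AC and NP pooled, by reads of *SMO*, the signal transducer of the hedgehog pathway. Hedgehog activity and protein were not measured in these cells, so the values are not set against those of the study. There were 1138 other cells with 5 or more *SMO* reads and 3556 with none, which gave 1131 pairs. *BNIP3* was at 865 against 729 rpm (log2 ratio 0.25), *EPAS1* at 0.14, *MRAS* at 0.13, *EGLN3* at 0.12, *NDRG1* at 0.12 and *HIF1A* at −0.14. *ANKRD37* was at 19.9 against 10.7 rpm (0.91, 0.84 to 0.97). None of the 7 members past the filter reached 2-fold in either direction, and of 7537 genes tested only 0.292% did (0.199% higher and 0.0929% lower).

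Single tags departed from this. Under A953, *EGLN3* was at 43.3 rpm in SMO-positive and 12.02 rpm in SMO-negative cells (log2 ratio 1.85), *ANKRD37* at 26.0 and 4.91 rpm (2.41) and *ADM* at 8.58 and 0.659 rpm (3.70). Under A951, A952 and A954 the same ratios were −0.57, −0.09 and −0.09 for *EGLN3* and 0.69, −0.02 and 0.64 for *ANKRD37*. For *ADM* they were 1.44, −0.28 and 0.05. *HIF3A* had 27 reads or fewer on either side under each tag. *ADM* did not pass the filter when all tags were pooled. *BNIP3* was higher in SMO-positive cells under all 4 tags, by 0.19, 0.38, 0.56 and 0.14 on the log2 scale. The 7 immediate early genes counted summed to 3018 rpm in SMO-positive and 1734 rpm in SMO-negative cells, and 1 of them, *FOS* (932 against 350 rpm), was at least 2-fold higher. The 9 notochordal markers summed to 87.5 against 245 rpm, most of it *APOE* (59.6 against 173 rpm), and *KRT19* was at 0.745 against 7.43 rpm. Their part in the values above was not tested.

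The wider pathway was read from fixed lists. Of 12 HIF regulators (the partner ARNT, the VHL ligase, the asparaginyl hydroxylase HIF1AN and coactivators among them) 9 were counted and 8 passed the filter in each comparison. None was 2-fold different in any of them. Their median log2 ratio was 0.20 for notochordal, −0.28 for IL17B-high and −0.08 for SMO-positive cells, against 0.28, −0.31 and 0.01 over all genes.

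Other HIF target genes had ratios past 2-fold in both directions in notochordal cells. Of 39 listed, 37 were counted and 33 passed the filter, with 10 at least 2-fold higher, 7 at least 2-fold lower and a median of 0.14. Of all genes 23.5% were higher and 11.1% lower, with a median of 0.28. Of the 10 higher targets 2 (*VLDLR* and *CA12*) and of the 7 lower ones 2 (*ANGPTL4* and *LOX*) passed the filter only through the group where they are high. For all genes this held for 625 of 1853 higher and 292 of 873 lower ones. The highest ratios were those of *FLT1*, a receptor of vascular endothelial growth factor (508 against 30.3 rpm), *VLDLR*, the very low density lipoprotein receptor (67.9 against 4.46 rpm), and *CA12*, a membrane carbonic anhydrase (52.6 against 6.09 rpm). The lowest were *ANGPTL4*, an inhibitor of lipoprotein lipase (3.30 against 50.5 rpm), *NOS2*, the inducible nitric oxide synthase (44.4 against 439 rpm), and *LOX*, the collagen crosslinking lysyl oxidase (10.7 against 63.2 rpm). Of the *NOS2* reads in notochordal cells 82.7% came from 5 cells, and its log2 ratio of −3.31 was −0.50 without A952. *FLT1* and *ADM* are also known from endothelium, and the 5 endothelial markers summed to 3.74 rpm in notochordal and 5.46 rpm in paired other cells. *PECAM1* was at 1.17 rpm and *CDH5* at 0.227 rpm in notochordal cells, and *VWF*, the most abundant of the 5, was at 1.41 rpm. The 5 immune and blood markers counted, of 7 listed, summed to 28.0 and 18.3 rpm, with *CD68* the most abundant at 9.64 rpm in notochordal cells and *PTPRC* at 1.30 rpm.

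Glycolysis genes were past 2-fold about as often as all genes in notochordal cells. Of 21 listed, 15 were counted and 13 passed, with 3 at least 2-fold higher and 1 lower, against 23.5% and 11.1% of all genes, and a median of 0.56, against 0.28. *PFKFB3*, which makes the main activator of phosphofructokinase, was at 233 against 31.3 rpm, the glucose transporter *SLC2A3* at 76.2 against 28.4 rpm and *GPI*, glucose-6-phosphate isomerase, at 555 against 267 rpm. *HK1*, a hexokinase, was at 115 against 257 rpm. Without A952 *GPI* (log2 ratio 0.96) and *HK1* (−0.74) were under 2-fold. The immediate early genes, which also respond to tissue dissociation, differed more: 5 of 7 were at least 2-fold higher, their sum was 7381 against 2216 rpm, and *DUSP1* (434 against 69.3 rpm), *JUN* (3104 against 597 rpm) and *NR4A1* (367 against 85.6 rpm) led them. Whether the dissociation response had a part in *ADM* or *MRAS* was not tested.

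In IL17B-high cells, 2 of 32 other HIF targets were at least 2-fold higher and 9 were at least 2-fold lower, with a median of −0.32. Of all genes 6.58% were higher and 17.2% lower, with a median of −0.31. Of the higher ones, *CA12* was at 40.3 against 6.29 rpm. On the low side were *ANGPTL4* (1.03 against 46.4 rpm), the carbonic anhydrase *CA9* (6.26 against 75.5 rpm) and *PPP1R3C*, a glycogen-targeting phosphatase subunit (19.4 against 146.5 rpm). Both carbonic anhydrases act in pH control. *CA12* passed the filter only through IL17B-high cells (11.9% against 3.31% of cells) and *CA9* only through other cells (4.64% against 31.8%), as did *ANGPTL4*. Of the 11 targets past 2-fold, 1 higher and 3 lower ones passed only through the group where they are high. Of 13 glycolysis genes 1 was higher, *PFKFB3* (146 against 33.4 rpm), and 1 lower, the neuronal enolase *ENO2* (0.888 against 28.3 rpm), with a median of −0.19. *ENO2* passed the filter only through other cells (0.662% against 13.2% of cells), where it is high, so its call is a description. Of the 7 immediate early genes, *DUSP1* was at 159 against 42.6 rpm and *FOS* at 156 against 399 rpm (log2 ratio −1.35, and −0.72 without A951), and the sum of all 7 was 2166 against 1962 rpm. The 9 notochordal markers summed to 398 against 174 rpm, the 5 immune and blood markers to 15.2 against 17.4 rpm and the 5 endothelial markers to 3.18 against 2.66 rpm. Most of the 398 rpm was *APOE* (363 rpm), with *KRT19* at 0.561 rpm and *CDH2* at 0.841 rpm in IL17B-high cells.

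In SMO-positive cells 1 gene of each of these lists was at least 2-fold higher and none lower, against 0.199% and 0.0929% of all genes. They were *ANGPTL4* (40.1 against 17.4 rpm), *PFKFB4*, a relative of *PFKFB3* (28.1 against 7.47 rpm), and *FOS* (932 against 350 rpm). Without A953 the log2 ratios of *ANGPTL4* (0.54) and *FOS* (0.99) were under 2-fold. *ANGPTL4* (7.69% against 3.802% of cells) and *PFKFB4* (9.195% against 3.71%) passed the filter only through the SMO-positive cells, where they are high, so their calls are a description. The medians were 0.26 over 31 other HIF targets, 0.20 over 14 glycolysis genes and 0.53 over 7 immediate early genes, against 0.01 over all genes. Of the 31 targets 28 had a ratio above 0, and of all genes tested 3900 of 7537 did.

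**Figure D4:**
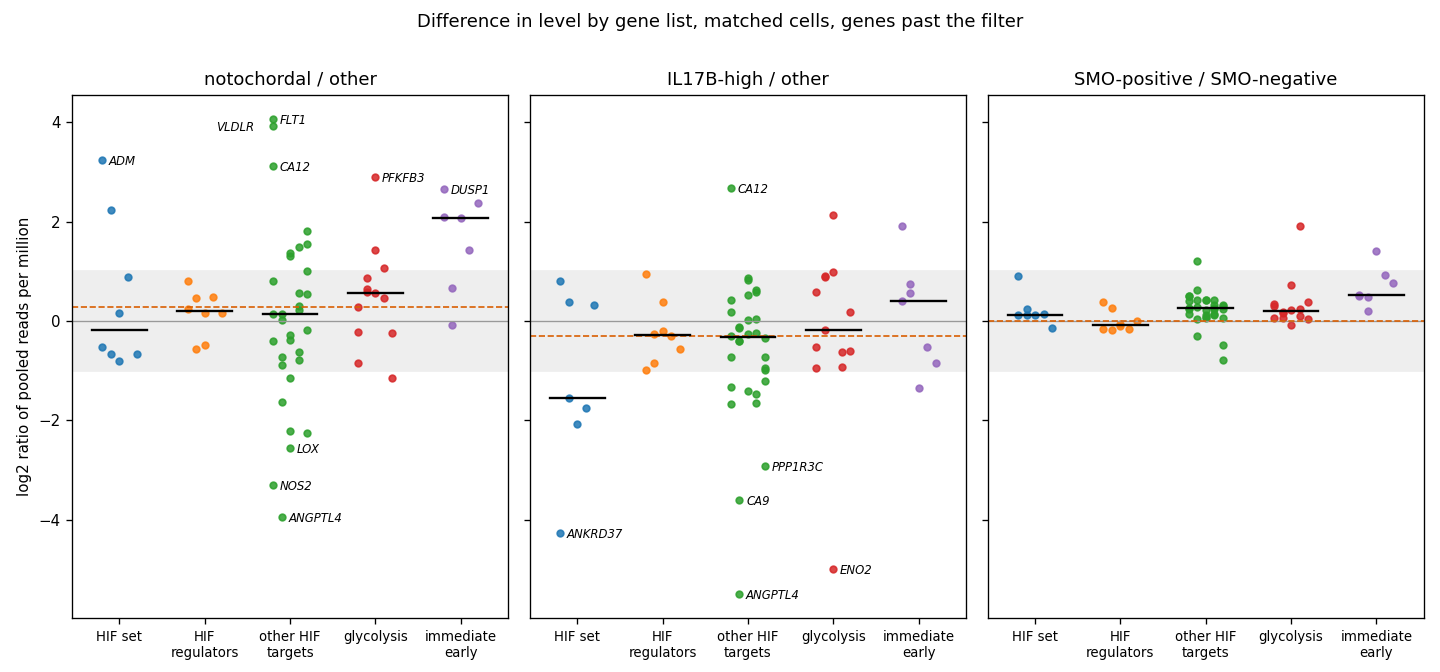
Log2 ratio of pooled rpm between paired cells for each gene past the filter, by gene list on the horizontal axis and comparison in the panels, with list medians as black lines, the median of all genes as a dashed line, grey for less than 2-fold and names for ratios of 2.5 or more in size. The points of 1 gene are not drawn, and medians are over all genes past the filter. HIF regulators stay inside the grey band in all 3 panels, while other HIF targets spread from −3.93 to 4.07 in notochordal cells.

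Other cells differed by tag too. *HIF1A* was highest under A953 (894 rpm), where *BNIP3* (478 rpm) and *EGLN3* (21.9 rpm) were lowest, and *BNIP3* (918 rpm) and *EGLN3* (48.2 rpm) were highest under A954. Between these tags *BNIP3* differed 1.92-fold and *EGLN3* 2.197-fold. *HIF1A* was 1.33 times higher under A953, so the RNA of the factor and of these target genes had opposite orders between the 2 tags. *NDRG1* (1.02), *ANKRD37* (1.14) and *EPAS1* (0.880) had ratios of A954 to A953 nearer to 1. Of 7 members tested 1 was 2-fold higher under A954, and 1.53% of 7297 genes were, with 0.822% lower and 2.36% in either direction. The median number of genes detected was 4026 under A954 and 3755 under A953.

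The lists of other HIF targets, glycolysis genes and immediate early genes leaned the same way, and the HIF regulators did not. Under A954, 24 of 30 other HIF targets were higher than under A953 with a median ratio of 1.25. For glycolysis genes it was 12 of 13 with a median of 1.32, against 3323 of 7297 and 0.977 over all genes. Of 8 HIF regulators 3 were higher, with a median ratio of 0.943. All 7 immediate early genes were higher under A954 as well, with a median ratio of 1.31, and their part was not tested. Whether a tag stands for a tissue, an animal or a part of one cannot be told apart here.

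Depth changed the shares and much less the levels. Other cells were divided into 4 equal bins by genes detected, from 728 to 2941 genes in the lowest and from 4696 to 8761 in the highest. The share with 5 or more *HIF1A* reads went from 75.7% to 99.9%, while its level was 711, 707, 731 and 743 rpm. For *MRAS* the share went from 5.70% to 27.4% and the level from 35.6 to 48.2 rpm. Exceptions were *ADM*, with a level of 11.1 rpm in the lowest and 4.23 rpm in the highest bin, and *HIF3A*, near the floor, with 0.0886, 0.662, 0.153 and 0.181 rpm.

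**Figure D5:**
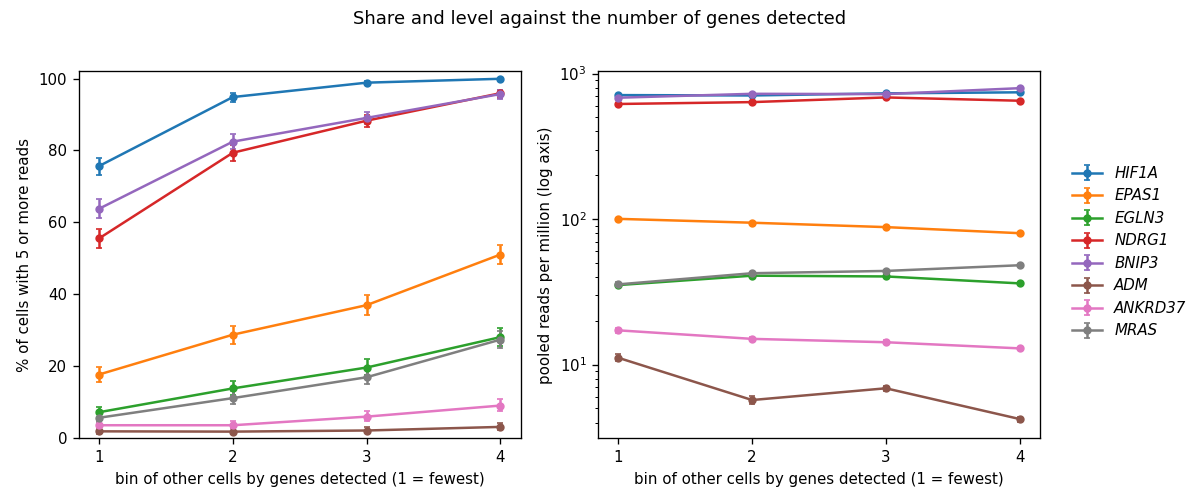
Other cells in 4 equal bins by number of genes detected on the horizontal axis, with the share of cells with 5 or more reads on the left and the pooled level on a log axis on the right, for 8 genes with exact 95% intervals. Shares climb with depth for every gene shown except *ADM* and *ANKRD37* between the first 2 bins, while levels change little apart from *ADM*, from 11.1 to 4.23 rpm.

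In other cells the correlations between members from cell to cell were small in size. Across 5192 other cells, after the number of genes detected was regressed out within each tag, all 21 pairs of the 7 members other than *HIF3A* and *ADM*, which were not included, had a mean correlation below 0.1 in size. The points share 1 library and differ in depth, and most values of low genes are 0, so these are descriptions. The highest pair was *EGLN3* with *BNIP3* (r = 0.09), and *BNIP3* was the gene most like *EGLN3* among 7171 genes. Small values could still rank high, and ranks differed widely between pairs. *BNIP3* had rank 54 for *ANKRD37* (r = 0.08) and 152 for *NDRG1* (0.06). *MRAS* had rank 7167 for *HIF1A* (−0.07), and *ANKRD37* had rank 5979 for *EPAS1* (−0.02). *BNIP3* itself was most like *NDUFA4L2*, a mitochondrial protein known as a HIF target (r = 0.28, from 0.24 to 0.34 over the 4 tags), *FAM162A* (0.26, from 0.24 to 0.28) and *TMEM45A* (0.25, from 0.18 to 0.31), both on the list of other HIF targets. The nearest genes of *NDRG1* were *NFATC2* (0.17), *MYADM* (0.16) and *ERF* (0.14). Those of *ANKRD37* were *SERTAD4* (0.16), *PER1* (0.15) and *FOS* (0.15). For *HIF1A* the best value was 0.11 (*HAPLN1*, *EDIL3* and *UGP2*), and for *EPAS1* (*THBS4*, *APOD* and *MAP4K4*) and *MRAS* (*PIM1*, *RNF19A* and *CNMD*) it was 0.09. *EGLN3* was followed by *ID1* (0.09) and *ENO2* (0.08). Correlations were also taken across notochordal cells of A951 and A952 (67 and 236 cells), averaged over these tags, with *ADM* in place of *ANKRD37*. These are far fewer cells, and no value expected without correlation was computed. Their sizes are therefore not compared with those of other cells, and the values farthest from 0 are given. *BNIP3* with *MRAS* had r = −0.18 (−0.25 and −0.11 under the 2 tags), *EGLN3* with *ADM* 0.17 (0.04 and 0.29), *HIF1A* with *MRAS* 0.14 (0.11 and 0.18) and *HIF1A* with *NDRG1* 0.14 (−0.01 and 0.29).

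Within notochordal cells the set was also compared by *SHH*, the hedgehog ligand, which 72 of 310 cells had at 5 or more reads. *MRAS* was at 249 rpm in these and 190.0 rpm in the other 238 notochordal cells, *ADM* at 99.97 and 93.5 rpm, and *HIF1A* at 530 and 465 rpm. *BNIP3* was at 629 and 853 rpm. The widest ratio was that of *ANKRD37*, at 0.920 and 13.8 rpm from 17 and 657 reads, and *HIF3A* had 34 and 16 reads. The cells with *SHH* reads had more genes detected (median 4405 against 3852) and were not paired for depth. At the level of the cell, a median of 4 members had 5 or more reads in notochordal cells and 3 in each of the other groups.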

How the data were processed

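The authors mapped reads to a *Macaca fascicularis* genome with HISAT2 (version 2.2.1), assigned them to whole genes by strand with featureCounts (version 2.0.2), keeping reads with several places or genes, and summed them per cell. The deposited values are counts, each the whole number of reads of 1 gene in 1 cell, without molecular identifiers or normalization, so PCR copies are counted. The genome build is not given in the sources used here. Of the values above 0, 32.2% were 1 read.

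Cells with 1 tag, 200 to 9000 genes and under 5% mitochondrial reads (13 genes) were kept, which removed 21. Kept cells had 24907 to 1290096 reads. Pairs were the nearest in genes detected within a tag, without reuse, within 10%. A ratio used pooled reads, with a group under 3 reads set to 3, and an exact conditional interval. The call was 2-fold or more. Correlations used log2(rpm + 1). Named were the 10 genes, up to 3 genes per list, comparison and direction past 2-fold, and the 3 genes most like each member. A result of 1 list gene is not reported here. Genes and lists were chosen with earlier results of these data known. A second matrix of 1358 cell columns, which matches no listed sample, and the tag library were not used. Settings varied were the cell limits, detection, pairing, scaling, thinning, filter, tags and group rules. Calculations used Python 3.11.15, numpy 2.4.6, scipy 1.17.1, pandas 2.3.3 and matplotlib 3.10.9 and were tested on simulated data.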

Additional observations from a re-analysis of the deposited data

Results flagged for a closer look

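*HIF3A* in other cells was at 0.697 rpm under A951, against 0.163, 0.201 and 0.152 rpm under A952, A953 and A954, and A951 stood apart from the other tags by 0.910 of the whole range. Of the 128 reads under A951, 103 were in 1 cell, and that cell held 604 rpm. Of the 9 genes looked at across the 4 tags, 1 stood apart in this way. How often chance alone gives such a gap was not tested.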

How the results depend on the processing

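Every one of the 33 ratios of named genes past 2-fold kept its sign under all alternatives run, but 15 were under 2-fold in at least 1 of them, 8 of these with the mean of log2(rpm + 1) alone. The other 7 were, in notochordal cells, *HIF3A* (down to 0.08), *NOS2* (−0.50), *GPI* (0.78) and *HK1* (−0.74), in IL17B-high cells *FOS* (−0.18) and in SMO-positive cells *ANGPTL4* (0.39, under 2-fold in 5 of 15 settings) and *FOS* (0.69). Of ratios under 2-fold, that of *ANKRD37* in notochordal cells (−0.66) turned to 0.38 when paired on reads, 0.40 when thinned and 0.06 without A952, and those of *BNIP3* in notochordal, *HIF3A* in IL17B-high and *EPAS1*, *EGLN3* and *MRAS* in SMO-positive cells turned in at least 1 setting. Counts of members past 2-fold moved as follows. In notochordal cells the count of higher members was 2. It was 1 when cells were not paired, where *ADM* no longer passed the filter, and 3 with detection from 1 read (*HIF3A*, 2.07), with the mean over cells of rpm (*EGLN3*, 1.01) and without A952 (*EGLN3*, 1.10). The count of lower members was 0, and it was 2 with the mean of log2(rpm + 1) (*HIF1A*, −1.001, and *NDRG1*, −1.38), 1 without A952 (*EPAS1*, −1.42), 1 without the 5 cells with the most reads of each gene (*ANKRD37*, −1.12) and 1 when centred on the median of all genes (*NDRG1*, −1.08). In IL17B-high cells the count of higher members was 0, and it was 1, namely *MRAS*, when cells were not paired (1.12), when paired on reads (1.77), when thinned (1.04), without A951 (1.04) and when centred (1.11). The count of lower members was 4, and it was 3 with the mean of log2(rpm + 1), when thinned and without A953, and 5, with *ADM* (−5.59), with detection from 1 read or a filter at 1% of cells. In SMO-positive cells the count of higher members was 0, and it was 1, namely *ANKRD37*, without A952 (1.05), without A954 (1.21) and without the 5 cells with the most reads (1.11). The causes of these changes were not tested. The log2 ratio of *ADM* in notochordal cells ranged from 1.65 (mean of log2(rpm + 1)) to 5.15 (without the 5 cells with the most reads) and that of *MRAS* from 1.93 to 2.72. In IL17B-high cells *BNIP3* ranged from −1.79 to −1.25 and *EPAS1* from −1.91 to −1.19. *ANKRD37* there was at −0.43 with the mean of log2(rpm + 1) and *EGLN3* at −3.08 without the 5 cells with the most reads. Centring and leaving out those 5 cells were chosen after the data were seen. With 1 library, no setting stands for a replicate, and low genes such as *ANKRD37* and *HIF3A* are limited by the number of reads. No paired analysis was possible because there was 1 library and so no replicates to pair. The pairing of single cells served only to match depth.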

Other observations

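The genes of this paragraph were chosen after their values were seen. Beside *LOX*, the lysyl hydroxylase *PLOD1* was at least 2-fold lower in notochordal than in paired other cells, at 83.7 against 186 rpm. Differences under 2-fold were those of its relative *PLOD2* (960.4 against 1658 rpm), the collagen prolyl hydroxylase *P4HA1* (258 against 428 rpm) and the lysyl oxidase *LOXL2* (31.8 against 48.9 rpm). In IL17B-high cells *PLOD2* was at 2627 against 1710.1 rpm and *LOX* at 116 against 64.0 rpm, while *P4HA1* was at 352 against 466 rpm. Of the *LOX* reads in IL17B-high cells 60.1% came from 5 cells, and the median cell had 1.95 rpm. *COL2A1* was at 1269 rpm in notochordal, 30361 rpm in IL17B-high and 19526 rpm in other cells.

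*BNIP3L*, the paralog of *BNIP3* and also a mitophagy receptor, was at 207 against 103 rpm in notochordal cells (log2 ratio 1.01) and at 62.6 against 120 rpm in IL17B-high cells (−0.93). Both genes thus had their lowest level in IL17B-high cells, and the difference between the 2 genes was not tested.

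*STC1*, a secreted glycoprotein, had the widest range between tags among the 37 other HIF targets counted, in other cells, of which 3.47% had 5 or more of its reads. It was at 20.4, 15.5, 22.2 and 3.75 rpm under A951 to A954, so A953 was 5.92 times A954, opposite to most of its list.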
